A study of Mus musculus with 21 samples.

Results

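The genes described here are the rows of a germ cell RNA-seq table whose symbols begin with Tex (testis expressed) or Spata (spermatogenesis associated) followed by a number, with Tex11 and Tex12 left out. They were 37 of the 37620 genes in the table, 18 with a Tex symbol and 19 with a Spata symbol, and stood for 36 symbols because Tex9 was listed under 2 identifiers. The study mapped where PRDM9, the protein that places meiotic recombination hotspots, binds DNA, and measured RNA of germ cells to ask whether gene expression is related to hotspot usage. The cells were enriched by enzymatic digestion from testes of C57BL/6J (B6) males at 12 days post-partum (dpp), with no treatment stated and with wt in every sample name. There were 12 libraries, 3 for each of 4 samples named 186wt, 343wt, 444wt and 456wt. All 4 samples had the same strain, age and labelled cell type (spermatocytes). The study describes 4 replicates of enriched germ cells, as many as there are sample numbers. The sources used here do not state what the numbers mean, how many animals each sample holds or whether its 3 libraries share 1 RNA. Each number enters as the mean of its libraries, and values are given as the mean ± SD over the 4 numbers.

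Most of these genes were named for the tissue in which their transcripts were found, so the symbols do not mark a family of related proteins. In the first wave of mouse spermatogenesis, spermatogonia give rise to spermatocytes, which pass through a long meiotic prophase, and round spermatids appear only after both meiotic divisions. Some of the genes act in spermatogonia or in meiotic recombination, others build the acrosome, the neck or the mitochondrial sheath of sperm, and still others work in most cells of the body.

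The deposited values are FPKM (fragments relative to the length of a transcript and the depth of a library), which allow levels to be compared between genes per length. By an estimate from the smallest steps between low values, each library held 12.96 to 18.09 M (mega) fragments, so that 0.1 FPKM on 1 kb of effective length stood for 18.29 fragments in all 12 libraries. The 12 meiotic prophase markers in the table, among them Sycp3 and Dmc1, were at 5.57 to 92.9 FPKM. The 9 spermatogonial markers were at 8.48 to 370.8 FPKM, the 8 Sertoli cell markers at 9.25 to 1844 FPKM and the 9 spermatid markers at 0 to 1.32 FPKM, with Prm2, which encodes a protamine of sperm chromatin, at 0 in all 12 libraries.

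Most of the Tex and Spata genes were expressed. A mean of at least 0.1 FPKM was reached by 33 of 37 (89.2%), compared with 55.3% of all genes in the table and 74.2% of its protein-coding genes, and a mean of at least 1 FPKM by 26 (70.3%), compared with 38.1% and 58.7%. The 4 genes below 0.1 FPKM were Tex24, Spata3, Tex21 and Tex13a, with means of 0.0783, 0.0617, 0.0425 and 0 FPKM, and were not tested between samples. The median of the 37 Tex and Spata genes was 7.13 FPKM, with 7.72 FPKM in 186wt, 5.87 in 343wt, 10.37 in 444wt and 6.14 in 456wt. The median of all genes in the table was 0.195 FPKM and that of protein-coding genes 3.01 FPKM. Together the 37 Tex and Spata genes held 885 ± 120 FPKM (SD, n = 4), or 0.184% of the sum over all genes, and 29.6% of that was Tex101 alone. The Tex symbols had a median of 23.4 FPKM and the Spata symbols one of 2.49 FPKM. These are descriptions of the table, since genes are not replicates.

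**Figure D1:**
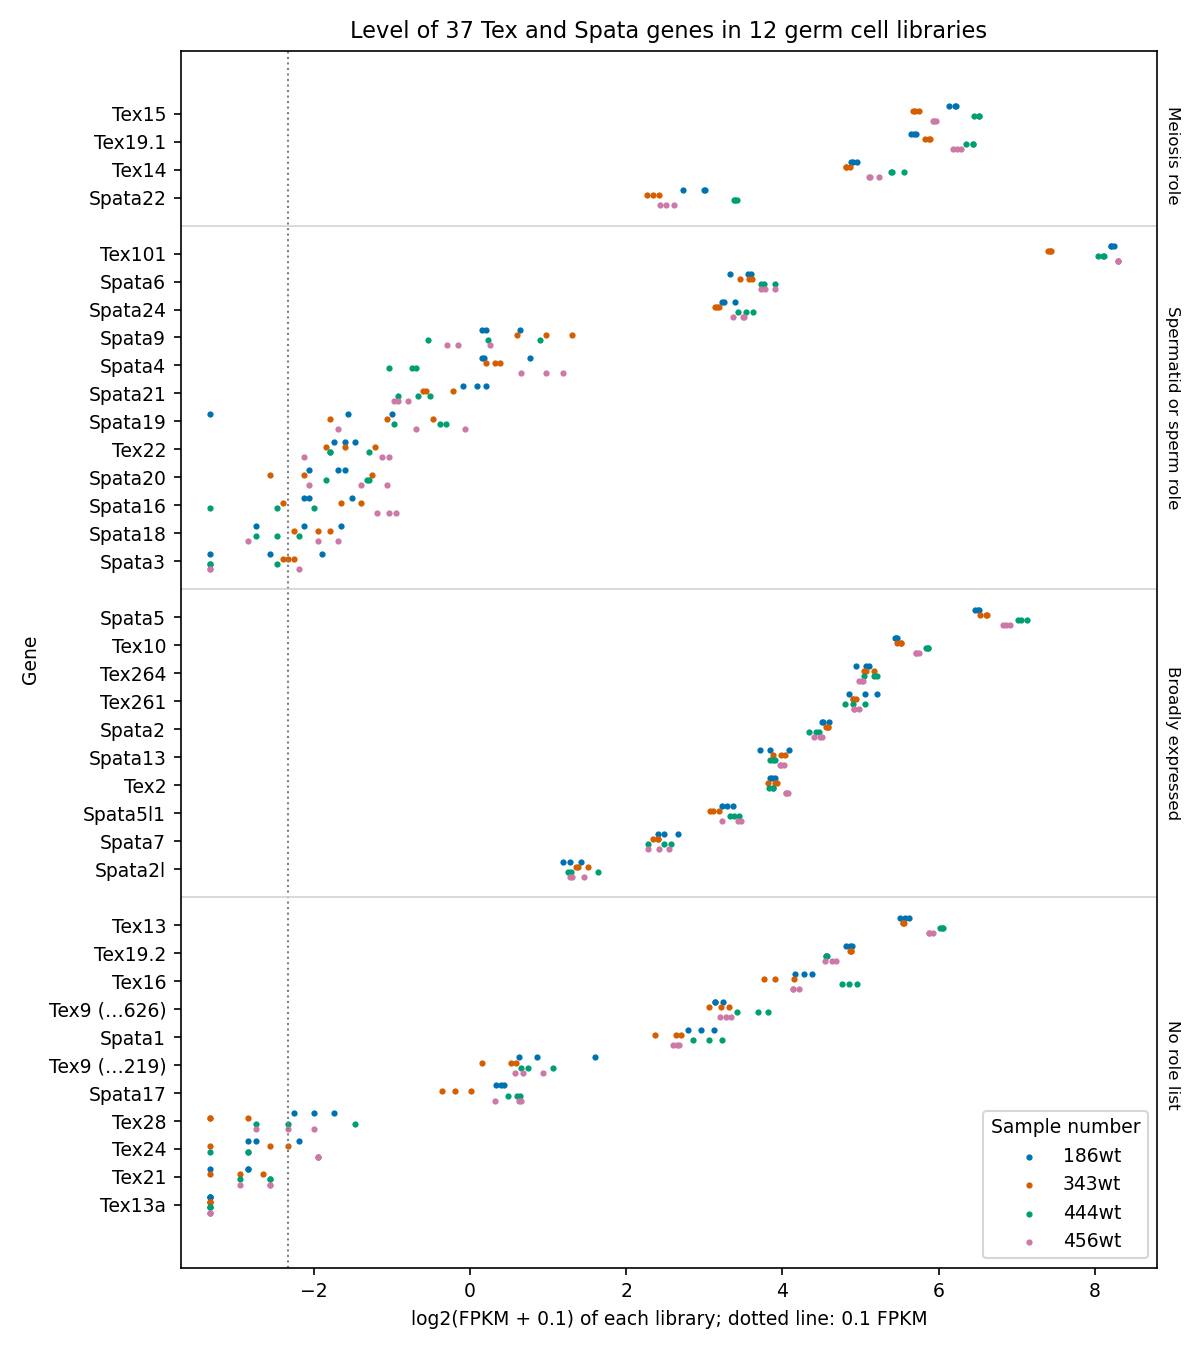
Level of each gene in each library as log2(FPKM + 0.1), with 3 points for each of the 4 sample numbers (colours) and genes ordered by mean within role groups; the dotted line is 0.1 FPKM. Tex101 lies farthest right with 168.6 to 314.5 FPKM, the 4 genes with a role before or during meiosis and the 10 broadly expressed genes all lie right of the line, and Tex13a is at 0 in all 12 libraries.

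The genes were grouped by roles known in general, which are not settled for every symbol, and the levels of the groups overlapped. The 4 genes with a germ cell role before or during meiosis (Tex14, Tex15, Tex19.1 and Spata22) had a median of 50.95 FPKM with a lowest gene of 7.13 FPKM, and the 10 broadly expressed genes one of 18.85 FPKM, all of them above 1 FPKM and the lowest at 2.49 FPKM. The 12 genes with a role in spermatids or sperm had a median of 0.535 FPKM but ran from 0.0617 FPKM for Spata3 to 264 FPKM for Tex101. Of these 12, 11 reached 0.1 FPKM but only 5 reached 1 FPKM, and Tex101, Spata6 and Spata24 were the only ones above 10 FPKM. The other 11 genes, which were on no role list, ranged from 0 for Tex13a to 54.8 FPKM for Tex13.

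Differences between the 4 samples were tested with limma on log2(FPKM + 0.1), a scale that understates the change of low genes. The test treats the 3 libraries of a number as replicates, while the study describes 4 replicates in all. Its p-values thus measure the spread between libraries, which may be technical, and it compares these 4 samples. By the F-test over the 4 numbers 21 of the 33 genes tested (63.6%) differed at an adjusted p under 0.05 (Benjamini-Hochberg over 20795 genes), compared with 58.2% of all genes tested, so the share was near that of the whole table. By role, the F-test called 4 of 4 genes of the meiosis group, 6 of 11 of the spermatid or sperm group, 5 of 10 broadly expressed genes and 6 of 8 on no list. On the log2 scale, the range over the 4 numbers had a median of 0.49, compared with 0.55 over all genes tested, and was above 1 for 6 genes (18.2%), compared with 21.4% of all. Fewer cells of a type and less RNA per cell cannot be told apart in these bulk samples.

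The largest number of differences lay between 444wt and 343wt. There 15 of 33 genes were higher in 444wt (45.5%) and 3 were lower (9.09%), compared with 30.4% and 17.5% of all genes tested. The median difference was 0.36 on the log2 scale over the 33 genes and 0.14 over all genes tested. With quantile normalization these medians were 0.20 and 0.04, and 13 genes were higher and 4 lower. Between 456wt and 343wt 13 genes were higher in 456wt and 3 lower, compared with 27.6% and 14.2% of all genes, and quantile normalization changed the split to 9 higher and 4 lower. The median of all genes shifted by 0.11 in that comparison, and by 0.0046 after quantile normalization.

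Compared with 186wt, 11 genes were higher in 444wt and 5 lower, against 26.1% and 16.3% of all genes tested. In 456wt 9 were higher than in 186wt and 5 lower (25.9% and 15.5% of all genes), a split of 7 and 6 after quantile normalization. Only 1 gene, Tex19.1, was higher in 343wt than in 186wt and 6 were lower (9.93% and 10.5% of all genes). In 456wt 4 genes were higher than in 444wt and 10 lower (15.1% and 13.1% of all genes). The 6 comparisons share samples and are not independent. Of the 33 genes, 15 (45.5%) were highest in 444wt and 15 were lowest in 343wt, compared with 36.3% and 34.2% of all genes tested.

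**Figure D2:**
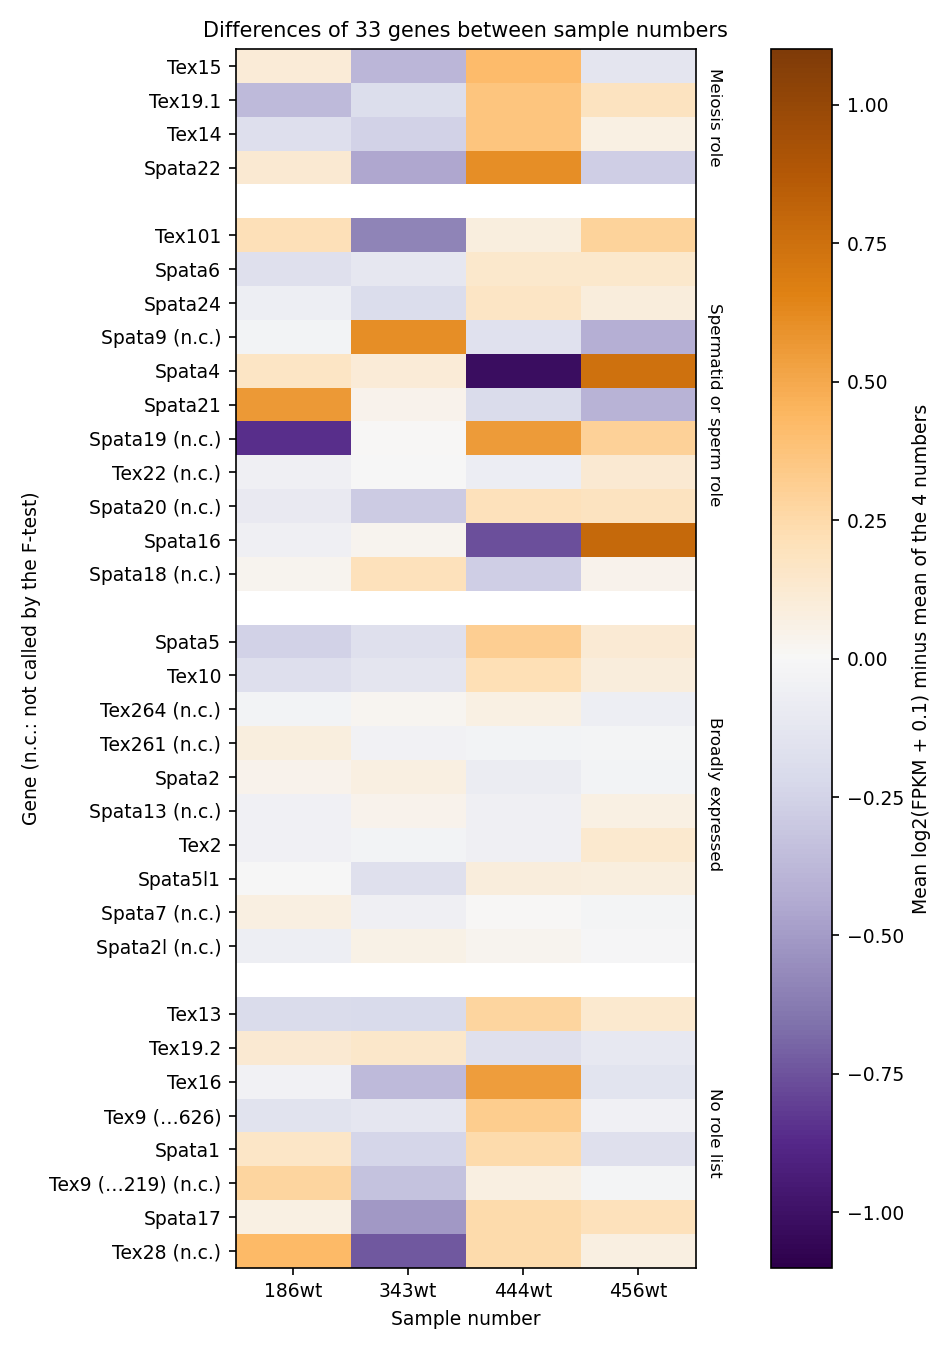
Deviation of each of the 33 genes tested in each sample number from the mean of the 4 numbers, in log2(FPKM + 0.1), with genes in role groups; n.c. marks genes that the F-test did not call. The 4 genes of the meiosis group are highest in 444wt, Tex19.2 is lower in 444wt and 456wt than in the other numbers, and Spata4 has the widest range, with 0.47 FPKM in 444wt against 1.84 FPKM in 456wt.

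Of the 4 genes with a role before or during meiosis, each was highest in 444wt, as were 36.3% of all genes tested. The role lists were chosen with earlier results of these data known. Tex19.2, Tex13 and Tex16 were on no role list. Of these, Tex19.2 was lowest in 444wt, and Tex13 and Tex16 were highest there. Tex15, which is needed for the repair of meiotic breaks and for silencing of transposons (NCBI build 37, chromosome 8 from 34627210 to 34696054, plus strand), had 72.85 FPKM in 186wt, 52.0 in 343wt, 90.4 in 444wt and 61.6 in 456wt, a mean of 69.2 ± 16.5 FPKM (SD, n = 4). No library of one number overlapped with those of another. Its log2 difference between 444wt and 343wt was 0.80 ± 0.03 (SE, limma adjusted p = 1.55e-09).

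Tex14 encodes a protein of the bridges that join dividing germ cells (chromosome 11 from 87218567 to 87369325, plus strand). It had 30.1 FPKM in 186wt, 28.4 in 343wt, 43.8 in 444wt and 35.6 in 456wt, or 34.5 ± 6.94 FPKM (SD, n = 4), and 444wt exceeded 343wt by 0.62 ± 0.05 on the log2 scale (SE, limma adjusted p = 8.28e-07). The libraries of 444wt were all above those of the other numbers. Between 343wt and 186wt the difference was -0.08 ± 0.05 (SE, limma adjusted p = 0.269).

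Spata22 acts on single-stranded DNA in meiotic recombination together with MEIOB (chromosome 11 from 73143243 to 73169415, plus strand). It was the lowest of the 4, with 7.47 FPKM in 186wt, 4.98 in 343wt, 10.43 in 444wt and 5.64 in 456wt. It had the widest range of the 4, with a difference of 1.05 ± 0.08 between 444wt and 343wt (SE, limma adjusted p = 7.79e-07). The 343wt and 456wt libraries lay close together, at 4.70 to 5.26 and 5.29 to 6.00 FPKM, and differed by 0.18 ± 0.08 (SE, limma adjusted p = 0.108). An olfactory receptor gene on the same strand, Olfr20, shares 25.8% of the 100-base stretches of the Spata22 transcripts, so reads there could be divided between them. Olfr20 itself was at 0.111 FPKM.

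Tex19.1, which restrains transposons in germ cells and placenta, spans 121007457 to 121009633 of chromosome 11 (plus strand), and its paralog Tex19.2 spans 120977529 to 120979991 (minus strand). The genes point away from each other and are 27465 bases apart. Tex19.1 had 51.1 FPKM in 186wt, 58.1 in 343wt, 85.1 in 444wt and 75.3 in 456wt. Tex19.2 had 28.8, 29.25, 23.6 and 24.5 FPKM in the same order. The paralogs thus differed in opposite directions between the same samples. From 343wt to 444wt Tex19.1 was higher by 0.55 ± 0.03 on the log2 scale (SE, limma adjusted p = 1.15e-07), while Tex19.2 decreased by 0.31 ± 0.04 (SE, limma adjusted p = 2.67e-05). In each gene the libraries of 444wt did not overlap with those of 343wt. The ratio of Tex19.1 to Tex19.2 was 1.77 in 186wt, 1.99 in 343wt, 3.61 in 444wt and 3.07 in 456wt. The 2 annotated transcripts of Tex19.1 and the 1 of Tex19.2, compared on both strands, share no stretch of 100 bases with 1 mismatch or fewer. The closest stretches differ at 3 bases, so an error-free 100-base read of one could not fit the other within the 1 mismatch that the methods of the study allow.

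The promoters of these genes were taken from RefSeq (GRCm38.p6, another build than that of the FPKM table), where 29 of 36 symbols had an entry. For 5 of these symbols a further promoter was listed, and only the first entry was used. Not matched were Tex13, Tex13a, Tex15, Tex22, Tex24, Spata24 and Spata2l. The 250 bases before the start sites of Tex19.1 and Tex19.2 are shown because the paralogs differed in opposite directions. Those of Tex101 and Spata5 belong to the highest genes, and those of Spata16 and Spata3 to low genes with a sperm role. CpG dinucleotides are in capitals, and each sequence is read 5′ to 3′ on the strand of the gene. They lie at chr11:121145893-121146142 (plus strand), chr11:121118678-121118927 (minus strand), chr7:24672051-24672300 (minus strand), chr3:37419700-37419949 (plus strand), chr3:26637381-26637630 (plus strand) and chr1:86021695-86021944 (plus strand).
Tex19.1: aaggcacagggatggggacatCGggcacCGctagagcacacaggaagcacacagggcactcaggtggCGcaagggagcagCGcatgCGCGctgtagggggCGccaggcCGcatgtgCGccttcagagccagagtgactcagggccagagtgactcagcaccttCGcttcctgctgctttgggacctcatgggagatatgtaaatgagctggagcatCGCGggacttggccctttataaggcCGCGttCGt
Tex19.2: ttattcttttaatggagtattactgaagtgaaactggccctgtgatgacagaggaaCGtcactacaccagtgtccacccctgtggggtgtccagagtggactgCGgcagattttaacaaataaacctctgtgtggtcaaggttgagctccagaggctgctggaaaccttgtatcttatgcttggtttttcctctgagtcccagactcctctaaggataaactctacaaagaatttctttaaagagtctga
Tex101: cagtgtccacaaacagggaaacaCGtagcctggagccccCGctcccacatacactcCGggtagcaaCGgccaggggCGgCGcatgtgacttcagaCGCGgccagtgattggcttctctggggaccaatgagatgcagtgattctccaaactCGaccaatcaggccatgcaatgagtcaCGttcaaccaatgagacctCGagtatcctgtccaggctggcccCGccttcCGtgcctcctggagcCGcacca
Spata5: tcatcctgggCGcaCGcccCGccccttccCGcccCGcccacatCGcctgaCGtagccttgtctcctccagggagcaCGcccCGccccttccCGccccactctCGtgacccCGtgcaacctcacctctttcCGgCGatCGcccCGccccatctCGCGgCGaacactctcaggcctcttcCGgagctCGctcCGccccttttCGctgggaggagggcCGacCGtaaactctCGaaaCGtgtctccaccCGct
Spata16: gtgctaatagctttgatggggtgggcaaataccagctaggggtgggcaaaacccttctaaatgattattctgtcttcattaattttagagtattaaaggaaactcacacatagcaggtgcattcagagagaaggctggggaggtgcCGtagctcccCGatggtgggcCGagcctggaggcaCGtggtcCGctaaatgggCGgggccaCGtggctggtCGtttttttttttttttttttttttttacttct
Spata3: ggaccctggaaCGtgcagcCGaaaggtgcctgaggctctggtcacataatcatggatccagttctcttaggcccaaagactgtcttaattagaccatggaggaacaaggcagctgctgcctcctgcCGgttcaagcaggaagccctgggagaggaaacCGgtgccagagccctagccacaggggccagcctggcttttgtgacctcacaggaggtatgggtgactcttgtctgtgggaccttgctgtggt

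The printed stretches hold 15 CpG for Tex19.1, 2 for Tex19.2, 14 for Tex101, 28 for Spata5, 8 for Spata16 and 4 for Spata3. Over the 300 bases of each entry, which run from 250 before the start to 50 after it, the ratio of observed to expected CpG was 0.58 for Tex19.1 and 0.13 for Tex19.2. A ratio of at least 0.6 was found in 16 of 21 matched genes (76.2%) with at least 1 FPKM and in 1 of 8 (12.5%) below it, Spata18. Among all genes of the table with a promoter these shares were 72.85% of 9562 and 14.1% of 6787, so the Tex and Spata genes were near the background in both classes. The 5 genes with at least 1 FPKM and a lower ratio were Tex16, Spata9, Tex19.2, Spata4 and Tex19.1, with 0, 1, 2, 8 and 16 CpG in 300 bases. Their mean levels were 20.3, 1.27, 26.55, 1.17 and 67.4 FPKM.

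Short motifs were searched on both strands of the 300 bases as a description. TCCCGC, the core of sites of the E2F cell cycle factors, was in 13 of 21 promoters of genes with at least 1 FPKM (61.9%) and in 0 of 8 below it, compared with 36.9% and 10.45% of the genes of the table and 20.02% of 27025 promoters. The motif holds a CpG itself, so motif and CpG content are not independent measures. Whether CpG content has a part in these shares was not tested. It was in the promoters of Tex14, Tex19.1, Spata22 and Spata5, and not in those of Tex101, Tex10, Tex16 and Tex19.2. TATAAA was in 4 of 29 (13.8%, compared with 14.2% of all promoters), which were those of Tex10, Tex19.1, Tex28 and Spata4. CACGTG was in 2 (6.90%, compared with 7.24%), those of Tex10 and Spata16. TGACGTCA was in 1, that of Spata7 (3.45%, compared with 1.88%).

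**Figure D3:**
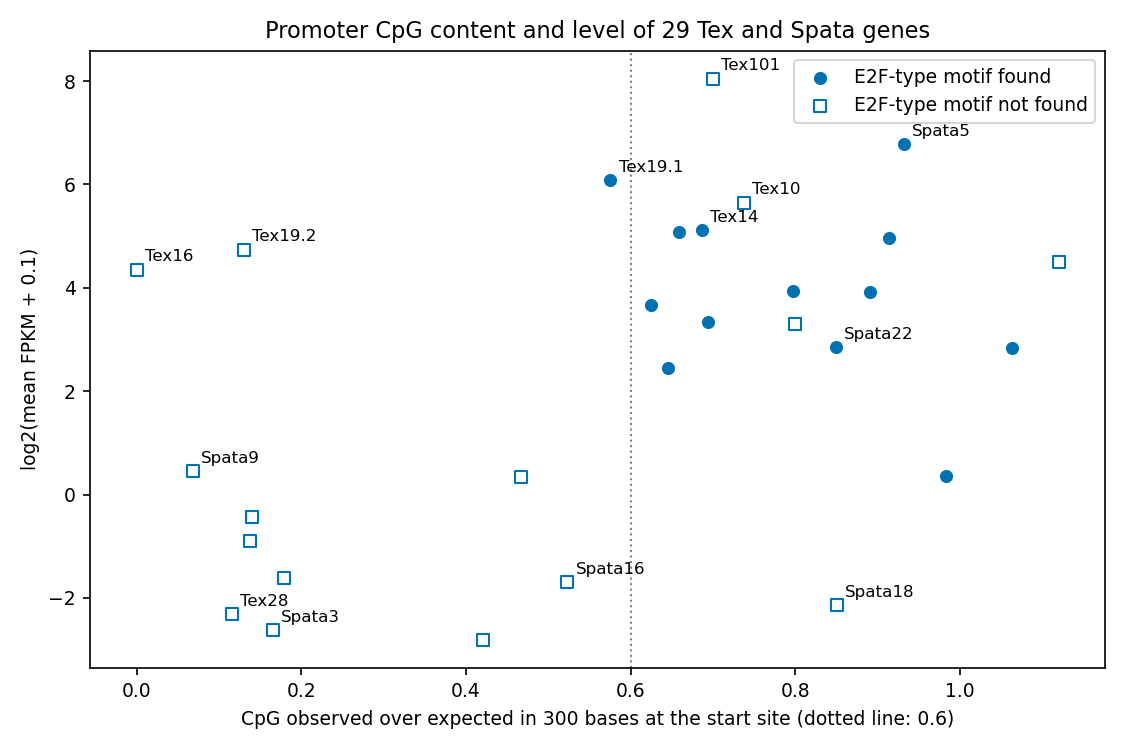
Ratio of observed to expected CpG in 300 bases at the start site (x axis; dotted line at 0.6) against log2(mean FPKM + 0.1) for the 29 genes with a promoter; filled points hold the searched E2F-type motif. Of the 21 genes with at least 1 FPKM, 16 lie at or right of the dotted line, and the 5 left of it are, from left to right, Tex16, Spata9, Tex19.2, Spata4 and Tex19.1.

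Among the genes with a role in spermatids or sperm, Tex101 stood apart in level. It encodes a glycoprotein of the germ cell surface that sperm need to pass into the oviduct (chromosome 7 from 25453031 to 25457069, minus strand). Its level was 298 FPKM in 186wt, 171 in 343wt, 272 in 444wt and 314 in 456wt, or 264 ± 64.2 FPKM (SD, n = 4), above 99.5% of the genes in the table. Its 3 libraries in 343wt, at 168.6 to 172.8 FPKM, lay below all others. Tex101 was lower in 343wt than in 186wt, with a log2 difference of -0.80 ± 0.02 (SE, limma adjusted p = 7.02e-10), whereas 444wt differed from 186wt by -0.13 ± 0.02 (adjusted p = 0.000358).

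Spata6, which is needed for the neck that joins sperm head and tail, had 11.2 FPKM in 186wt, 11.6 in 343wt, 13.9 in 444wt and 13.9 in 456wt. Spata24 had 9.71, 8.89, 11.45 and 10.88 FPKM in the same order. Both were higher in 444wt than in 343wt, by 0.25 ± 0.08 and 0.36 ± 0.06 (SE, limma adjusted p = 0.0194 and 0.000658), with no overlap of their libraries.

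Spata4 and Spata16 showed the widest ranges of the genes that the F-test called, and both were lowest in 444wt and highest in 456wt. Spata4 (chromosome 8 from 55686134 to 55695451, plus strand) had 1.22 FPKM in 186wt, 1.14 in 343wt, 0.47 in 444wt and 1.84 in 456wt. Its 3 libraries in 444wt, at 0.39 to 0.52 FPKM, were below all others, and 456wt exceeded 444wt by 1.76 ± 0.21 (SE, limma adjusted p = 7.07e-05). Spata16, which is needed to form the acrosome, had 0.173, 0.197, 0.0767 and 0.383 FPKM in the same order, and 456wt exceeded 444wt by 1.55 ± 0.40 (SE, limma adjusted p = 0.0135). The 456wt libraries of Spata16 were at 0.34 to 0.42 FPKM and those of the other numbers at 0 to 0.28 FPKM. Its F-test call (limma adjusted p = 0.0355) was lost without library 3 of 343wt, library 1 or 3 of 444wt, or any library of 456wt, with adjusted p-values of 0.0518 to 0.0952.

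Spata21 had 0.953 FPKM in 186wt, 0.633 in 343wt, 0.52 in 444wt and 0.44 in 456wt, and was the only gene of the sperm group that was highest in 186wt. It was lower in 456wt than in 186wt, with a log2 difference of -0.96 ± 0.19 (SE, limma adjusted p = 0.00153), and all 3 libraries of 186wt, at 0.84 to 1.05 FPKM, were above the 9 others. Spata9 was not called by the F-test (limma adjusted p = 0.0838, and 0.0195 and 0.0310 without library 1 or 2 of 444wt) but differed between 456wt, at 0.873 FPKM, and 343wt, at 1.88 FPKM, by -1.02 ± 0.33 (SE, limma adjusted p = 0.0266). Spata18, which takes part in mitochondrial quality control, Spata19, a protein of sperm mitochondria, Spata20 and Tex22 had means of 0.127, 0.434, 0.224 and 0.25 FPKM and were not called by the F-test. Spata3, at 0.0617 FPKM with 5 libraries at 0, was below the minimum. Of the 14 listed symbols absent from the table under these names, such as Spata25, Spata32, Tex33 and those of the Spata31 family, no value can be given.

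Of the 10 broadly expressed genes, 3 were higher in 444wt than in 343wt, 1 was lower and 6 were not called, compared with 30.4% higher and 17.5% lower of all genes tested, so these shares were near the background. Spata5 encodes an ATPase of ribosome assembly (chromosome 3 from 37318818 to 37478018, plus strand). It was the second highest gene of all 37, with 90.3 FPKM in 186wt, 95.95 in 343wt, 134.4 in 444wt and 116.9 in 456wt. Tex10, which is also part of a complex that matures ribosomes, had 43.7, 45.2, 57.9 and 52.8 FPKM in the same order. Both were higher in 444wt than in 343wt, Spata5 by 0.49 ± 0.03 (SE, limma adjusted p = 3.17e-07) and Tex10 by 0.36 ± 0.02 (SE, limma adjusted p = 1.15e-07), and no library of 444wt overlapped with 343wt or 186wt. Spata5l1, a partner of Spata5, had 9.71, 8.63, 10.37 and 10.32 FPKM and was called with a smaller difference of 0.26 ± 0.07 (SE, limma adjusted p = 0.00784) between 444wt and 343wt. Its F-test call (limma adjusted p = 0.0191) was lost under quantile normalization (adjusted p = 0.181) and without library 1 or 3 of 343wt (0.0779 and 0.0672). Exons of Spata5 share 316 bases with Nudt6 on the other strand and those of Tex10 share 226 bases with Invs. Nudt6 and Invs were at 9.49 and 6.01 FPKM, and reads of such pairs cannot be told apart without strand, for which no setting is stated.

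Tex264, a receptor for autophagy of the endoplasmic reticulum, had 32.9 FPKM in 186wt, 34.2 in 343wt, 35.25 in 444wt and 32.2 in 456wt. Tex261, a membrane protein of the secretory pathway, had 32.97, 30.2, 30.3 and 30.5 FPKM. Neither was called by the F-test (limma adjusted p = 0.183 and 0.494). Spata13 (limma adjusted p = 0.0247 without library 2 of 186wt), Spata7, a protein of photoreceptor cilia, and Spata2l were not called either, with means of 15.2, 5.35 and 2.49 FPKM. Spata2, which links the deubiquitinase CYLD to TNF signalling, was called with a small difference of -0.16 ± 0.04 between 444wt, at 21.2 FPKM, and 343wt, at 23.7 FPKM (SE, limma adjusted p = 0.00656). Exons of Spata2 share 129 bases with Rnf114 on the other strand, a gene at 71.35 FPKM. Those of Spata2l share 91 bases with Cdk10 on the other strand, a gene at 23.99 FPKM. Tex2, a lipid-binding protein of the endoplasmic reticulum, was higher in 456wt, at 16.5 FPKM, than in the others, at 14.5 to 14.7 FPKM. From 186wt to 456wt it differed by 0.19 ± 0.04 (SE, limma adjusted p = 0.00232).

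Of the 37 genes, 4 were on the X chromosome. Tex13 (137342846 to 137347972, minus strand) and Tex16 (109124616 to 109240935, plus strand) are known from spermatogonia. Tex13 had 47.2 FPKM in 186wt, 46.8 in 343wt, 65.6 in 444wt and 59.5 in 456wt, and Tex16 had 19.24, 15.4, 28.9 and 17.8 FPKM. Both were higher in 444wt than in 343wt with no overlap of libraries, Tex13 by 0.49 ± 0.03 (SE, limma adjusted p = 7.72e-08) and Tex16 by 0.91 ± 0.09 (SE, limma adjusted p = 5.69e-06). In 456wt Tex13 was above 343wt by 0.35 ± 0.03 (SE, limma adjusted p = 1.71e-06). For Tex16 that difference was 0.22 ± 0.09 (SE, limma adjusted p = 0.0704), and the difference between the 2 genes was not tested. Tex28, at 0.101 FPKM, was the gene just above the minimum of 0.1 FPKM and Tex24, at 0.0783 FPKM, the one just below it. Tex28 was listed at 0 in 2 libraries of 343wt and was not called (limma adjusted p = 0.109). Tex13a was at 0 in all 12 libraries, which allows up to 0.0164 FPKM on 1 kb of effective length (3 fragments, counting error only).

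Spata17, on no role list, had 1.21 FPKM in 186wt, 0.79 in 343wt, 1.39 in 444wt and 1.36 in 456wt. Its libraries in 343wt, at 0.68 to 0.91 FPKM, were below all others, and 444wt exceeded 343wt by 0.75 ± 0.15 (SE, limma adjusted p = 0.00116). The 2 rows of Tex9 cover the same locus and share most of their sequence, with 62.3% and 86.2% of their 100-base stretches in common, so that only their sum can be read as the level of Tex9. It was 10.96 FPKM in 186wt, 10.35 in 343wt, 14.1 in 444wt and 11.15 in 456wt. This sum was not tested between samples. The counts of genes tested and called hold both rows. Of these, the F-test called the row with the higher level (limma adjusted p = 0.00398) and not the other (0.187). Spata1 had 7.72 FPKM in 186wt, 5.87 in 343wt, 8.22 in 444wt and 6.14 in 456wt. Its exons share 169 bases with Ctbs on the other strand, a gene at 6.06 FPKM.

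**Figure D4:**
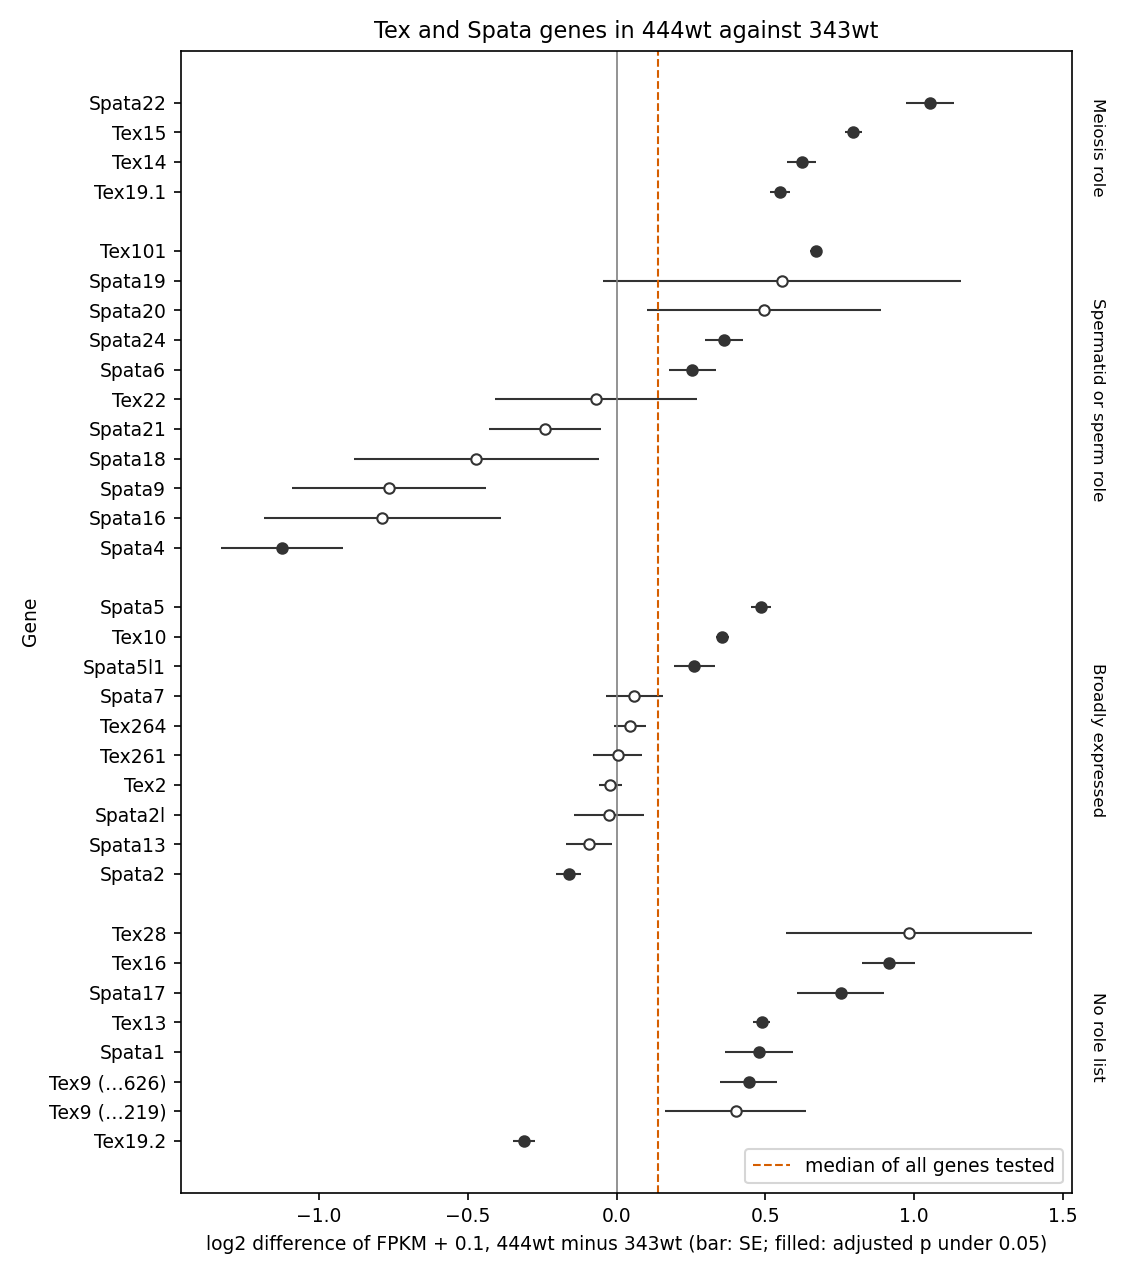
Difference of each of the 33 genes tested between 444wt and 343wt on the log2(FPKM + 0.1) scale, with the SE as bars and filled points for an adjusted p under 0.05; the dashed line is the median of all 20795 genes tested, 0.14. The 4 genes of the meiosis group lie between 0.55 and 1.05, and Spata4, Tex19.2 and Spata2 are the 3 filled points below 0.

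Markers of germ and somatic cells moved between the same samples. The 12 meiotic prophase markers summed to 503 FPKM in 186wt, 402 in 343wt, 659 in 444wt and 483 in 456wt. All 12 were called higher in 444wt than in 343wt, with a median difference of 0.69 on the log2 scale. Of all genes tested 30.4% were called higher in that comparison, with a median difference of 0.14. The 9 spermatogonial markers summed to 682, 725, 993 and 865 FPKM in the same order, and 8 of 9 were called higher in 444wt than in 343wt (median 0.50). For the 4 genes with a role before or during meiosis, a list chosen with earlier results of these data known, the median was 0.71. Of these 4 genes, Tex14, Tex15 and Spata22 were lowest in 343wt and Tex19.1 in 186wt. Of the meiotic prophase markers 11 of 12 were lowest in 343wt, compared with 34.2% of all genes tested. Of the spermatogonial markers 8 of 9 were lowest in 186wt, compared with 27.8% of all genes tested. Tex13 and Tex16 were lowest in 343wt and Tex19.2 in 444wt.

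The somatic lists differed as well. The 8 Sertoli cell markers, with Sox9 and Wt1 among them, summed to 3033 FPKM in 186wt, 3135 in 343wt, 1730 in 444wt and 1912 in 456wt. All 8 were called lower in 444wt than in 343wt, compared with 17.5% of all genes tested. The 6 Leydig cell markers summed to 56.45, 110.5, 16.1 and 60.9 FPKM, and the 5 macrophage markers to 14.0, 32.3, 7.04 and 27.7 FPKM. All genes of both lists were called lower in 444wt than in 343wt, against the same 17.5% of all genes tested. The 5 peritubular myoid markers summed to 533, 253, 670 and 1112 FPKM, the 5 endothelial markers to 16.2, 21.0, 13.4 and 34.2 FPKM and the 5 red blood cell markers to 30.3, 77.85, 94.8 and 173 FPKM. The directions given for 444wt against 343wt held with the FPKM rescaled to a common total and after quantile normalization. The 7 pachytene markers summed to 139, 91.65, 115 and 143 FPKM in the same order, most of it from Ybx2 and Hspa2. Their single genes had no common order, with 3 of 7 lowest in 343wt and 3 in 444wt, and with 4 highest in 456wt and 3 in 186wt. Of all genes tested, 34.2% were lowest in 343wt and 21.3% in 444wt, and 27.3% were highest in 456wt and 18.8% in 186wt. The 9 spermatid markers summed to only 3.83, 2.74, 5.85 and 3.98 FPKM. The part of these markers in the differences of the Tex and Spata genes was not tested.

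**Figure D5:**
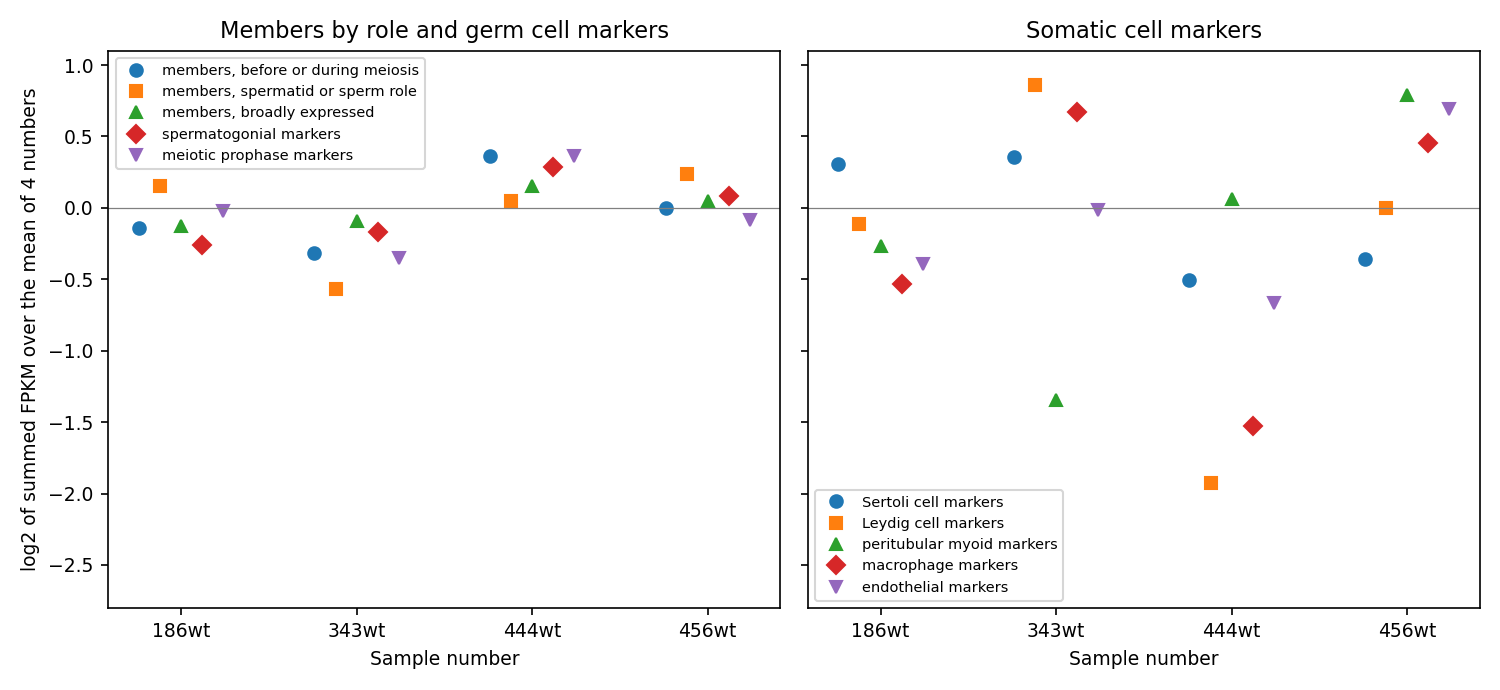
Summed FPKM of role groups and marker lists in each sample number over the mean of the 4 numbers, on a log2 scale; the left panel shows members by role with germ cell markers and the right panel somatic markers. In 444wt the meiosis group and the meiotic prophase markers are both at their highest, with 229.7 and 658.6 FPKM, and the Leydig and macrophage markers are at their lowest, with 16.1 and 7.04 FPKM.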

How the data were processed

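The data were RNA-seq values of 12 libraries of 4 sample numbers, made from testicular germ cells of B6 males (12 dpp). The ChIP-seq, Affinity-seq and input samples were not used here. The authors aligned paired-end reads of 100 bp to the transcripts of NCBI build 37 using Bowtie 0.12.9, discarded reads with 2 or more mismatches and deposited FPKM from RSEM 1.2.8, rounded to 2 decimals, with no counts. A read that fits several transcripts is shared among them by RSEM, and no strand setting is stated. Library sums of FPKM were 477629 to 485096. Every value column belonged to a labelled library, so 0 columns were left out.

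Genes and lists were chosen with earlier results of these data known. Named were all genes on the role lists, the 5 highest, the 8 called genes with the widest log2 range, paralogs, X-linked genes and those nearest 0.1 FPKM. Values of a number are means of 3 libraries. The genes at or above 0.1 FPKM on average were tested on log2(FPKM + 0.1) with limma 3.58.1 (R 4.3.3, lmFit and eBayes with trend). An F-test over the numbers and 6 contrasts were used, with Benjamini-Hochberg adjustment over all 20795 genes and a threshold of 0.05. Each contrast was adjusted on its own, with no adjustment across the 6. The test was checked on simulated data with independent libraries, which cannot show whether the 3 libraries of a number are technical repeats. Depth was estimated from the steps between low FPKM of 448 genes. Coordinates are from the mouse GENCODE release M1 (37205 of 37620 identifiers matched), and promoters from RefSeq. Python 3.11.15 with pandas 2.3.3, numpy 2.4.6 and scipy 1.17.1 gave the other values, and matplotlib 3.10.9 the plots. Other minimums, pseudocounts and scalings, a replicate block, and leaving out numbers or libraries were tried as alternatives. Spermatogonial, meiotic, pachytene, spermatid, Sertoli, Leydig, peritubular myoid, endothelial, macrophage and red blood cell markers were listed to describe other cells in the preparation.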

Additional observations from a re-analysis of the deposited data

Results flagged for a closer look

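The 4 sample numbers were compared by Dixon's ratio, the gap between the highest or lowest number and its nearest neighbour over the whole range, for 58 values (the FPKM of 36 genes, 5 combined values and 17 medians). The ratio was above its 95% critical value for 3 of them, and chance flags about 1 in 20 groups, or 2.9 of 58. Tex261 had 32.97 FPKM in 186wt and 30.2 to 30.5 FPKM in the other numbers, and its mean without 186wt was 30.3 FPKM. The limma F-test did not call this gene, whose 3 libraries in 186wt ranged from 28.8 to 36.8 FPKM. Tex2 had 16.5 FPKM in 456wt and 14.5 to 14.7 FPKM in the others, with a mean of 14.55 FPKM without 456wt. The median of the endothelial markers was 6.48 FPKM in 456wt and 2.27 to 2.81 FPKM in the others. Whether endothelial RNA has a part in the level of Tex2 was not tested.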

How the results depend on the processing

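The number of genes expressed was 33, with 36 if every value above 0 counted and 26 if at least 1 FPKM was asked for, and 32 to 33 without single libraries. The median FPKM of members was 7.13, between 7.06 and 7.24 without single libraries, and moved to 14.8 FPKM when each library was rescaled to the same total, which is larger than the deposited sums. The F-test called 18 to 22 genes under all alternatives in place of 21. The counts of genes called between pairs also stayed within 1.5 times: 5 to 8 in place of 7 for 343wt against 186wt, and 12 to 20 in the other 5 pairs, where the main counts were 14 to 18. Of 681 recomputed log2 differences of single genes, 664 kept their direction and their side of the F-test threshold. Each was taken between the highest and the lowest number of the main fit. Other minimums, the replicate block and leaving out other numbers or their libraries cannot change such a difference, only the adjusted p. Many of the 681 thus could not change in direction. The exceptions lay in 6 genes. The adjusted p of the limma F-test ranged from 0.0183 to 0.0952 for Spata16, whose call was lost with a pseudocount of 0.01 and without 6 single libraries, and from 0.00348 to 0.181 for Spata5l1, whose call was lost in 3 alternatives. It ranged from 0.0149 to 0.268 for Spata9, from 0.0247 to 0.573 for Spata13 and from 0.0279 to 0.263 for Tex28, which gained a call in 4, 1 and 1 alternatives. The difference between 456wt and 444wt of Tex22, which was not called under any alternative, was -0.00094 (the reversed sign) to 0.54 on the log2 scale without single libraries. A gene at 0.1 FPKM rests on 18.29 fragments per kb of effective length over all 12 libraries, which limits the precision of the low genes.

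The labels do not state whether library numbers 1 to 3 pair libraries across samples, and the main test treated the libraries as unpaired. Deviations of libraries with the same number correlated at -0.041 to 0.030 across genes, and those with different numbers at -0.034 to 0.040. With the number as a replicate block the F-test called 21 of the 33 genes, as without it.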
